A study of Mus musculus with 12 samples.

Results

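The 9 genes described here encode the xenobiotic receptors CAR (Nr1i3) and PXR (Nr1i2), the cytochrome P450 reductase POR (Por), and 6 P450 enzymes of the neighbouring Cyp2b and Cyp2a families: Cyp2b9, Cyp2b10, Cyp2b13, Cyp2a4, Cyp2a5 and Cyp2a22. They were taken by name from the 23991 genes of the table, with earlier results of these data known. Liver polyA RNA of male C57/Bl6 mice was sequenced in 3 groups of 4 libraries. The first group, HFD+ASBTi, ate a high-fat diet with 0.2% cholesterol and 0.006% SC-435, an inhibitor of ASBT, the transporter through which the ileum reclaims bile acids. The second, HFD, ate the high-fat diet with 0.2% cholesterol alone, and the third ate chow. All mice went onto their diet at 4 weeks of age and stayed on it for 16 weeks. The libraries are called HFD+ASBTi 1 to 4, HFD 1 to 4, and chow C2, C3, C7 and C8. The column C7 is known to be chow, but its name matches no single labelled sample, and the labels of all chow samples carry the same replicate number, 1. Nothing in the labels ties the libraries to different mice, so the p-values speak only of differences among libraries, some of which could be technical.

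CAR and PXR are nuclear receptors that sense drugs, bile acids and other lipids, pair with RXR, and switch on genes that oxidise, conjugate and export such compounds. CAR rests in the cytoplasm and enters the nucleus when activated, so its activity need not follow its RNA. In mouse liver Cyp2b10 is the textbook CAR target and Cyp3a11 the textbook PXR target. P450 enzymes of the endoplasmic reticulum receive their electrons from POR. In mice, the clock-driven PAR bZip factors DBP, TEF and HLF are known to act on Por, Alas1, Nr1i3, Cyp2a4 and Cyp2a5.

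The 6 P450 genes lie together on chromosome 7 of the GRCm38.p6 mouse genome. In order they are Cyp2b10 (chr7:25897658-25926624), Cyp2b13 (chr7:26061388-26096197), Cyp2b9 (chr7:26173350-26210661), Cyp2a4 (chr7:26307192-26315088), Cyp2a5 (chr7:26835339-26843264) and, on the minus strand, Cyp2a22 (chr7:26931631-26939413). Nr1i3 lies at chr1:171213934-171218845, Nr1i2 on the minus strand at chr16:38248349-38294849, and Por at chr5:135670040-135735326. The authors used the older build mm9, so these positions serve only to locate the genes.

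Several of these genes are close copies, which bears on how reads can be divided between them. The coding sequences of Cyp2a4 and Cyp2a5, both of 1482 bases, differ at 23 positions (98.4% identical), and 36.1% of the 50-base windows of the Cyp2a4 transcript also occur in Cyp2a5. Cyp2a22 and Cyp2a12, a related enzyme gene, are 97.0% identical over the coding sequence. Cyp2b9 and Cyp2b13 are 92.7% identical, and Cyp2b10 is 87.8% identical to Cyp2b9. The stretch from coding base 213 to 312 of Cyp2a4 (chr7:26307682-26307781, plus strand, GRCm38) and of Cyp2a5 (chr7:26835827-26835926, plus strand) is shown, from GENCODE transcripts. It was picked because no 100-base coding stretch within a single exon holds more differences than its 4, in capitals, so it is not typical of the pair.
Cyp2a4: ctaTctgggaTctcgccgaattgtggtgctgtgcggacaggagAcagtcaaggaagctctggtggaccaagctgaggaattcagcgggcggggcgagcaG
Cyp2a5: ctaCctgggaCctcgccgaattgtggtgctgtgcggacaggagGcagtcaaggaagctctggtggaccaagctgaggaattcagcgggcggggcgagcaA

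The similarity extends upstream. Over the 250 bases before the start, Cyp2a4 and Cyp2a5 are 97.6% identical and Cyp2b9 and Cyp2b13 99.2% identical, while Cyp2b10 is 68.1% identical to either of them. Bases -250 to -51 are shown for Cyp2a4 (chr7:26306942-26307141), Cyp2a5 (chr7:26835089-26835288) and Cyp2b10 (chr7:25897408-25897607), all on the plus strand, from RefSeq on GRCm38.p6. For the Cyp2a pair, capitals mark bases that differ in the alignment, in which the Cyp2a4 window starts 1 base earlier, so that its first base has no partner. For Cyp2b10, capitals mark a match to TTGCNNAA, the form of motif that C/EBP factors bind.
Cyp2a4: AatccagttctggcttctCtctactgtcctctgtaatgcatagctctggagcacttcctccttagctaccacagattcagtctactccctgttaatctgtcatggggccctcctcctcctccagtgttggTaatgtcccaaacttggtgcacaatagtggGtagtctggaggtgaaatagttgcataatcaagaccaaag
Cyp2a5: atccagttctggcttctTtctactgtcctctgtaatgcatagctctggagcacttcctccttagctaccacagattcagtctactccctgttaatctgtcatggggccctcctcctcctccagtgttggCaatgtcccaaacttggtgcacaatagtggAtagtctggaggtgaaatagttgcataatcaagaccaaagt
Cyp2b10: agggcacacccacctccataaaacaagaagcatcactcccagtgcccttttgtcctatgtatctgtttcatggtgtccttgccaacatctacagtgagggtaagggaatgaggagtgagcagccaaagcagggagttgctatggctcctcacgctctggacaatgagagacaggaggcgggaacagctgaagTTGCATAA
Searched on both strands of the 250 bases, TTGCNNAA was present in 5 of the 9 genes and in 9.56% of 32851 mouse windows of that length. The 5 were Cyp2b10 and both members of the near-identical pairs, Cyp2a4 with Cyp2a5 and Cyp2b9 with Cyp2b13. Close copies are thus counted as separate genes, and the count cannot be read against the share of windows. TTGCNNAA was chosen after the sequences had been seen. AGGTCA, a nuclear receptor element, was present in 2 of 9 (Cyp2b9 and Cyp2b13, at -138 to -133) and in 14.0% of windows. AGTTCA, a variant of that element, was present in 0 of 9 and in 11.8% of windows, and TTATGTAA, a form of the PAR bZip element, in 0 of 9 and in 0.819%. The CAR-responsive enhancer known for mouse Cyp2b10 lies farther upstream than this window. A match is a description of letters, and no match says only that they are not in the window.

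Values are the authors' RPKM, reads scaled by library total and by a gene length that fits the whole genomic span, introns included. RPM is the same value before scaling by length, and RPM per spliced kb, used wherever levels of different genes are set side by side, divides RPM by the spliced length. Estimated depth was 8970000 to 11260000 reads in HFD+ASBTi libraries, 10310000 to 13240000 in HFD libraries and 10670000 to 11350000 in chow libraries. Genes with at least 0.5 RPKM in at least 4 of 12 libraries were tested with limma on log2(RPKM + 0.5), and called at a Benjamini-Hochberg adjusted p under 0.05. Of the 9 genes, 6 passed that filter. Cyp2b9, Cyp2b10 and Cyp2b13 did not, so they were compared by an exact two-sided permutation test, whose smallest possible p with 4 against 4 is 0.0286. All 9 were also tested with limma on log2(RPM + 0.5), where low genes with long introns are shrunk less. The filter there was at least 0.5 RPM in at least 4 of 12 libraries. Cyp2b10 met it only through chow, at 4.23 RPM or more, with every high-fat library at 0.445 RPM or less.

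On the RPKM scale 0 of the 6 tested genes were called in any of the 3 comparisons. Over all 6325 genes tested, 12.1% were called in HFD against chow (7.65% higher, 4.46% lower). In HFD+ASBTi against HFD 0.0949% were called (0.0316% higher, 0.0632% lower), and in HFD+ASBTi against chow 7.05% (4.74% higher, 2.31% lower). In genes, HFD against chow had 484 higher and 282 lower, against 426 and 384 after quantile normalization and 420 and 389 after a median shift. HFD+ASBTi against chow had 300 higher and 146 lower, against 190 and 203 after quantile normalization and 185 and 211 after a median shift. At an unadjusted limma p under 0.05, Cyp2a22 passed in HFD against chow, Nr1i2 in HFD+ASBTi against HFD, and Nr1i2, Por and Cyp2a4 in HFD+ASBTi against chow. The shares of all genes passing that looser mark were 28.7%, 9.26% and 23.3% in the 3 comparisons. Cyp2a22 would not have been tested on the RPKM scale without its HFD values, so its place here adds no support. On the RPM scale, Cyp2b10 was the 1 gene of 9 called, lower in HFD against chow and in HFD+ASBTi against chow, where 9.81% and 5.48% of 13286 genes were called in either direction and 3.32% and 1.62% were called lower. Cyp2b10 passed the filter of that scale only through chow, so it had to differ. No gene of the 9 was called there in HFD+ASBTi against HFD, where 0.0452% of genes were called. With 1 library left out at a time, 1 to 2 members were called on this scale in HFD against chow (Cyp2a22 also, without chow C8). For HFD+ASBTi against chow 1 to 3 were called, with Nr1i2 and Por also without HFD+ASBTi 3, Nr1i2 also without HFD 1 and Cyp2a4 also without chow C7.

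**Figure D1:**
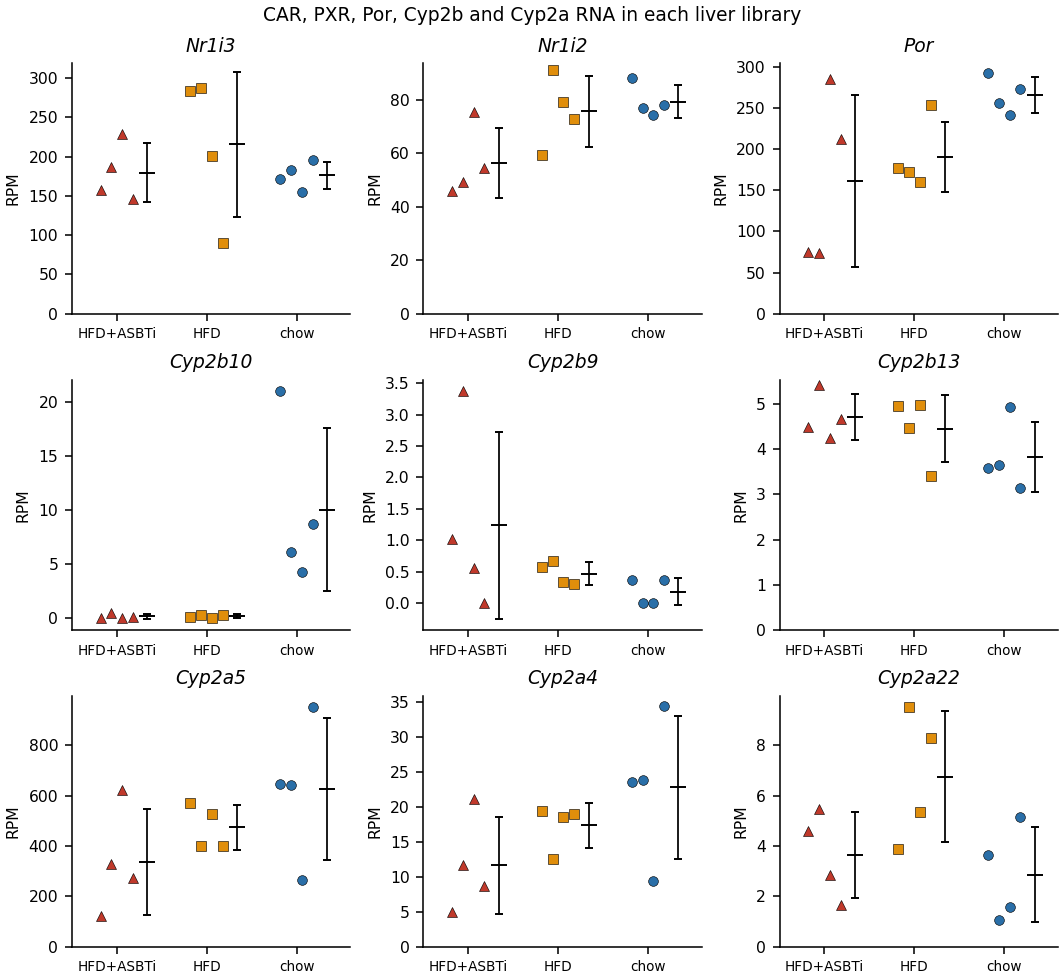
RPM of each of the 9 genes in every library (points) with the mean and SD of each group (bars, n = 4), for HFD+ASBTi, HFD and chow from left to right. Cyp2b10 is the gene whose chow libraries, at 4.23 to 21.0 RPM, stand apart from all HFD+ASBTi and HFD libraries, while the groups of the other 8 genes overlap.

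Nr1i3, encoding CAR, was a well expressed gene in all groups, and no comparison moved it beyond the spread between libraries. It had 32.3, 38.2, 47.0 and 29.9 RPKM in HFD+ASBTi 1 to 4. The HFD libraries had 58.2, 59.0, 41.1 and 18.5 RPKM, and chow C2, C3, C7 and C8 had 35.1, 37.6, 31.8 and 40.1 RPKM. HFD libraries thus held both the highest and the lowest values of the study, and all groups overlapped. The limma log2 change was 0.16 in HFD against chow (95% interval -0.53 to 0.84, adjusted p = 0.778). It was -0.15 in HFD+ASBTi against HFD (-0.83 to 0.54, adjusted p = 0.921) and 0.01 in HFD+ASBTi against chow (-0.68 to 0.70, adjusted p = 0.9897). These intervals are wide, so equal levels are not shown. In bulk liver, here and for every gene that follows, fewer cells of a type and less RNA per cell cannot be told apart. Nr1i3 overlaps its neighbour Tomm40l, a mitochondrial import gene, by 1044 bases, and no strand-aware counting is stated, so their reads cannot be told apart there. Tomm40l had 188% to 221% of the Nr1i3 RPM in every library, and its log2 values correlated with those of Nr1i3 at r = 0.989 over the 12 libraries.

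Nr1i2, encoding PXR, ran lowest in the HFD+ASBTi libraries, without being called. HFD+ASBTi 1 to 4 had 0.988, 1.06, 1.62 and 1.17 RPKM. HFD 1 to 4 had 1.28, 1.96, 1.70 and 1.56 RPKM, and the chow libraries 1.90, 1.65, 1.60 and 1.67 RPKM. HFD+ASBTi 3 alone reached into the chow range, and the other 3 HFD+ASBTi libraries lay below every HFD and chow library. The group means were 1.21 ± 0.284 RPKM in HFD+ASBTi, 1.63 ± 0.286 in HFD and 1.71 ± 0.132 in chow (SD, n = 4 each). The limma log2 change was -0.38 (SE 0.12, adjusted p = 0.0855) in HFD+ASBTi against chow and -0.32 (SE 0.12, adjusted p = 0.453) in HFD+ASBTi against HFD. In HFD against chow it was -0.06 (95% interval -0.33 to 0.20, adjusted p = 0.776). The difference from chow passed limma's threshold without HFD+ASBTi 3 (log2 change -0.49, adjusted p = 0.0251), after quantile normalization (-0.44, adjusted p = 0.0449) and after a median shift (-0.43, adjusted p = 0.0461).

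Por, encoding the reductase that serves all microsomal P450 enzymes, split the HFD+ASBTi libraries into a low and a high pair. HFD+ASBTi 1 and 2 had 1.61 and 1.60 RPKM, while HFD+ASBTi 3 and 4 had 6.15 and 4.57 RPKM. HFD 1 to 4 had 3.82, 3.71, 3.45 and 5.48 RPKM, and chow C2, C3, C7 and C8 had 6.32, 5.53, 5.21 and 5.89 RPKM. The low pair lay under every other library of the study, and the high pair within the range of HFD and chow. Por averaged 3.48 ± 2.26 RPKM in HFD+ASBTi, 4.12 ± 0.924 in HFD and 5.74 ± 0.479 in chow (SD, n = 4 each). The limma log2 change was -0.83 (SE 0.34, adjusted p = 0.163) in HFD+ASBTi against chow, and -1.14 (adjusted p = 0.0431) without HFD+ASBTi 3. It was -0.45 (SE 0.34, adjusted p = 0.404) in HFD against chow and -0.38 (SE 0.34, adjusted p = 0.752) in HFD+ASBTi against HFD. Reads of Por cannot be told apart from those of Gm40345, a long non-coding RNA, and Gm16061, a pseudogene, which overlap it.

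The same pair of libraries stood out for Alas1, which encodes the first enzyme of haem synthesis, and for clock genes. Alas1 had 10.0, 4.73, 31.4 and 23.0 RPKM in HFD+ASBTi 1 to 4, against 18.7, 18.7, 21.2 and 35.4 RPKM in HFD 1 to 4 and 19.1, 18.3, 23.6 and 26.1 RPKM in the chow libraries. Its adjusted limma p was 0.943 in HFD against chow, 0.674 in HFD+ASBTi against HFD and 0.470 in HFD+ASBTi against chow. Per1, a clock repressor, had 0.590, 0.824, 4.47 and 2.94 RPKM in HFD+ASBTi 1 to 4, against 1.43 to 2.70 RPKM in HFD and 2.75 to 3.50 RPKM in chow. Of all tested genes Per1 had the pattern most like Por, with r = 0.929 over the 12 libraries, which is a description of shared libraries. Per3, another clock repressor, had 0.339 and 0.268 RPKM in HFD+ASBTi 1 and 2, and 1.58 and 1.12 RPKM in HFD+ASBTi 3 and 4. It had 0.908 to 1.38 RPKM in HFD and 0.191 to 0.613 RPKM in chow. Arntl, the clock activator BMAL1, was high where Per3 was low, with 3.08 and 3.82 RPM in HFD+ASBTi 1 and 2 and 0.669 and 0.543 RPM in HFD+ASBTi 3 and 4. Arntl had 0.377 to 1.07 RPM in HFD and 1.31 to 6.25 RPM in chow, highest in chow C7. Per1, Per3 and Arntl were singled out after their values had been seen. The time of day at harvest is not given in the sources used here, and the part of clock phase in the Por values was not tested.

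**Figure D2:**
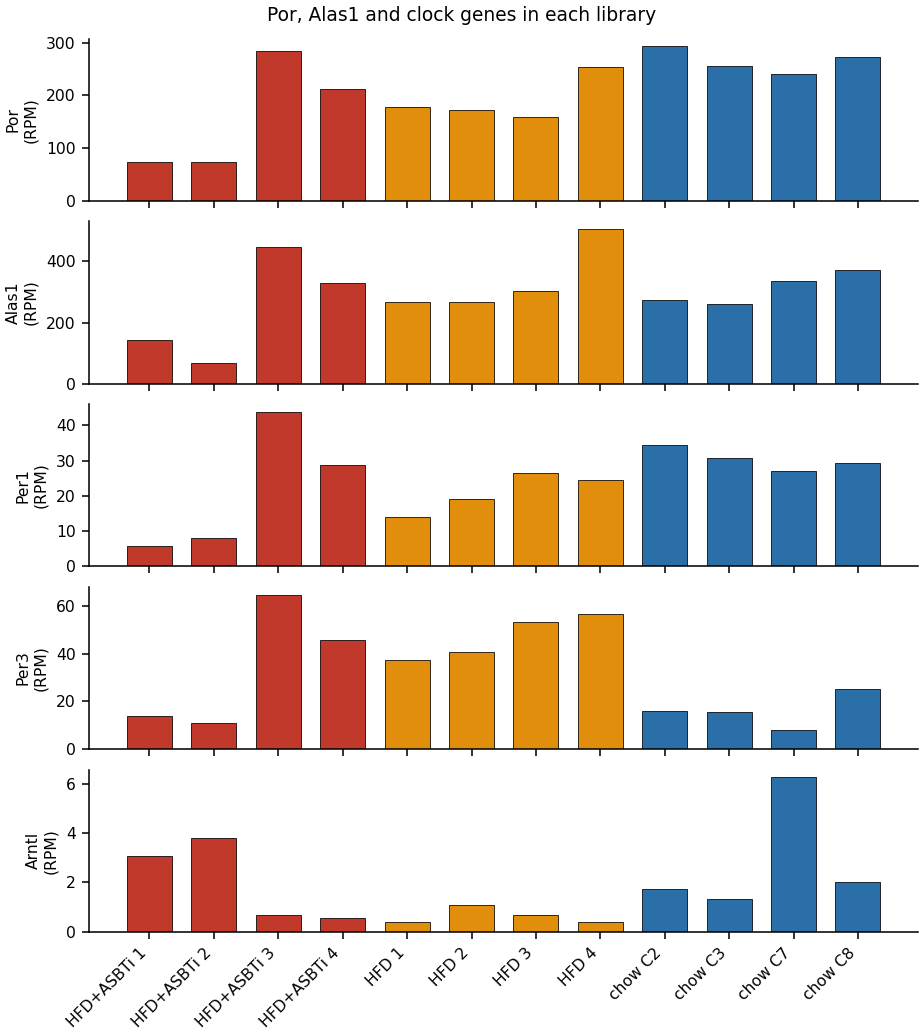
RPM of Por, Alas1, Per1, Per3 and Arntl (rows from top to bottom) in each library, with HFD+ASBTi in red, HFD in orange and chow in blue. In HFD+ASBTi 1 and 2, Por, Alas1, Per1 and Per3 are low and Arntl is high, at 3.08 and 3.82 RPM, relative to HFD+ASBTi 3 and 4.

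Cyp2b10, which oxidises drugs and steroids, was nearly absent from livers of both high-fat groups and present in every chow liver. It had an estimated 0, 5, 0 and 1 reads in HFD+ASBTi 1 to 4, and 1, 3, 0 and 4 reads in HFD 1 to 4. Chow C2, C3, C7 and C8 had 228, 65, 48 and 94 reads. No HFD+ASBTi or HFD library came within reach of the lowest chow library, and chow C2 was the highest. Cyp2b10 averaged 0.00477 ± 0.00726 RPKM in HFD+ASBTi, 0.00594 ± 0.00514 in HFD and 0.345 ± 0.260 in chow (SD, n = 4 each). The mean was 58.1-fold lower in HFD than in chow (36.8-fold without chow C2). It was 72.4-fold lower in HFD+ASBTi than in chow, 45.9-fold without chow C2 and 276-fold without HFD+ASBTi 2. The high-fat means rest on 6 reads in HFD+ASBTi and 8 in HFD, against 435 in chow, so the size of these folds is imprecise.

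The exact two-sided permutation p was 0.0286 for Cyp2b10 in HFD against chow and in HFD+ASBTi against chow, the smallest this design allows. With 1 HFD library left out for the first comparison, or 1 HFD+ASBTi library for the second, the exact p was 0.0571. On log2(RPM + 0.5) limma gave a change of -3.75 (SE 0.38, adjusted p = 5.87e-05) in HFD against chow and -3.85 (SE 0.38, adjusted p = 8.09e-05) in HFD+ASBTi against chow. Cyp2b10 passed the filter of that scale only through the chow libraries, so it had to differ, and these p-values add no support. Leaving out any 1 of the 12 libraries left the RPM-scale adjusted p between 5.62e-05 and 0.000403 in HFD against chow and between 6.65e-05 and 0.000551 in HFD+ASBTi against chow. The filter was taken from all 12 libraries in each of these fits. Taken without any 1 chow library, it would have left Cyp2b10 out. Without a filter on RPKM, limma's adjusted p was 0.0356 in HFD against chow and 0.0547 in HFD+ASBTi against chow. The groups did not overlap for Cyp2b10 in either comparison with chow. On the RPM scale 17.2% of genes did not overlap in HFD against chow (6.53% lower) and 13.1% in HFD+ASBTi against chow (4.29% lower), with 3.54% in HFD+ASBTi against HFD. Between HFD+ASBTi and HFD both groups had at most 5 reads in any library, so no fold is given. The RPM-scale log2 change there was -0.10 (95% interval -0.92 to 0.72, limma adjusted p = 0.976). Both comparisons with chow share the 4 chow libraries.

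Cyp2b9 and Cyp2b13 are P450 genes known for higher expression in female than in male mouse liver. Cyp2b9 was at the edge of detection, with an estimated 11, 38, 5 and 0 reads in HFD+ASBTi 1 to 4, 6, 7, 4 and 4 reads in HFD 1 to 4, and 4, 0, 0 and 4 reads in the chow libraries. HFD+ASBTi 2 held most of the reads of its group, and the groups overlapped. The exact permutation p for Cyp2b9 was 0.171 in HFD against chow, 0.429 in HFD+ASBTi against HFD and 0.171 in HFD+ASBTi against chow. The mean of Cyp2b9 was 6.72-fold higher in HFD+ASBTi than in chow, 2.86-fold without HFD+ASBTi 2 and 10.1-fold without chow C8. Without HFD+ASBTi 4, the library with 0 reads, the exact p was 0.0286.

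Cyp2b13 was low and even, with 48, 61, 38 and 43 reads in HFD+ASBTi 1 to 4, 52, 46, 60 and 45 in HFD 1 to 4, and 39, 39, 56 and 34 in the chow libraries. Its exact permutation p was 0.343 in HFD against chow, 0.629 in HFD+ASBTi against HFD and 0.114 in HFD+ASBTi against chow, and 0.0286 for the last without chow C7. The RPM-scale limma log2 change of Cyp2b13 was 0.20 (95% interval -0.15 to 0.53, adjusted p = 0.483) in HFD against chow. The Cyp2b13 span holds 3960 bases of Rnf170-ps, a pseudogene, and reads of the pair cannot be told apart there. Cyp2b13 and Cyp2b9 are 92.7% identical to each other, and reads in shared stretches are uncertain between them.

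**Figure D3:**
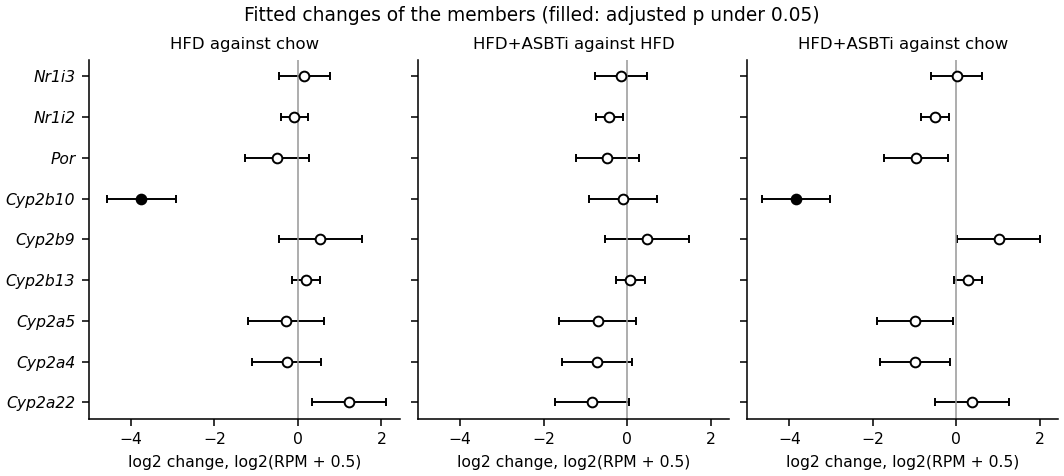
Log2 change of each gene on the log2(RPM + 0.5) scale with its 95% interval, in HFD against chow, HFD+ASBTi against HFD and HFD+ASBTi against chow, where filled points have an adjusted p under 0.05. Cyp2b10 is filled at -3.75 and -3.85 in the comparisons with chow, and every other point is open. Cyp2b10 passed the filter of this scale only through chow, so it had to differ.

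Cyp2a5, the mouse coumarin 7-hydroxylase, had the highest mean of the 9 genes per spliced length in each group and varied widely within groups. Nr1i3 was above it per spliced length in HFD+ASBTi 1 and HFD 2. It had 14.6, 40.1, 75.6 and 33.2 RPKM in HFD+ASBTi 1 to 4. HFD 1 to 4 had 69.4, 48.6, 64.0 and 48.5 RPKM, and chow C2, C3, C7 and C8 had 78.8, 78.2, 32.2 and 116 RPKM. HFD+ASBTi 1 was the lowest library, chow C8 the highest, and chow C7 lay far below the other chow libraries. For Cyp2a5 limma gave a log2 change of -0.98 (SE 0.47, adjusted p = 0.237) in HFD+ASBTi against chow, -0.70 (SE 0.47, adjusted p = 0.672) in HFD+ASBTi against HFD and -0.28 (SE 0.47, adjusted p = 0.728) in HFD against chow. Beside these values, Dbp was lowest in chow C7 among all libraries, at 5.10 RPKM, and Arntl was highest there. In HFD+ASBTi 1, lowest for Cyp2a5, Dbp was 13.5 RPKM, above the highest chow library, C8, at 11.6 RPKM. HFD had the highest mean Dbp of the groups, 22.0 RPKM, and a lower mean Cyp2a5 than chow, 57.6 against 76.3 RPKM. The part of clock phase in the Cyp2a5 values was not tested.

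Cyp2a4, which encodes a steroid hydroxylase, followed Cyp2a5 from library to library. It had 0.626, 1.48, 2.67 and 1.09 RPKM in HFD+ASBTi 1 to 4, 2.46, 1.58, 2.34 and 2.39 RPKM in HFD 1 to 4, and 2.97, 3.01, 1.19 and 4.34 RPKM in the chow libraries. The same libraries were low and high as for Cyp2a5, except that HFD 4 was not low for Cyp2a4. Cyp2a4 was 3.14% to 4.75% (median 3.56%) of the Cyp2a5 RPM, a 1.51-fold range, while Cyp2a5 RPM spanned a 7.95-fold range over the same libraries. Given the near-identical transcripts, how much of the Cyp2a4 value is reads of Cyp2a5 was not tested, and Cyp2a4 is reported as uncertain. For Cyp2a4 limma gave a log2 change of -0.79 (SE 0.34, adjusted p = 0.193) in HFD+ASBTi against chow, -0.54 (SE 0.34, adjusted p = 0.652) in HFD+ASBTi against HFD and -0.25 (SE 0.34, adjusted p = 0.677) in HFD against chow.

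**Figure D4:**
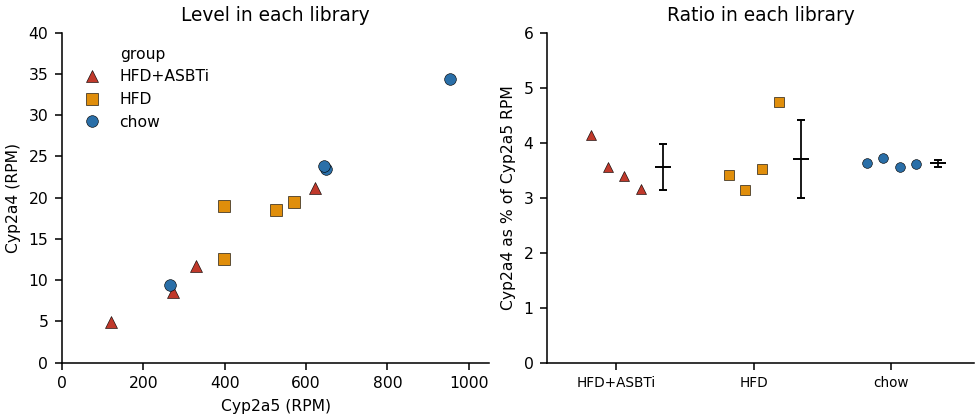
Left, Cyp2a4 RPM against Cyp2a5 RPM with 1 point per library, and right, Cyp2a4 as a percent of Cyp2a5 RPM by group with mean and SD (n = 4). The ratio stays between 3.14% and 4.75% in all 12 libraries of the HFD+ASBTi, HFD and chow groups.

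Cyp2a22, whose enzyme is little characterised, ran higher in HFD than in either other group, short of the threshold. It had 0.625, 0.744, 0.388 and 0.224 RPKM in HFD+ASBTi 1 to 4, 0.528, 1.30, 0.727 and 1.13 RPKM in HFD 1 to 4, and 0.498, 0.145, 0.216 and 0.703 RPKM in the chow libraries. HFD 2 and 4 lay above every other library, and the groups overlapped. Cyp2a22 would not have reached the filter without HFD, with 2 HFD+ASBTi, 4 HFD and 1 chow libraries at 0.5 RPKM or more. Its RPKM-scale comparisons with HFD were thus admitted through the group where it was high, and cannot serve as support for a rise there. For Cyp2a22 limma gave a log2 change of 0.68 (SE 0.25, adjusted p = 0.0920) in HFD against chow, -0.51 (SE 0.25, adjusted p = 0.564) in HFD+ASBTi against HFD and 0.17 (SE 0.25, adjusted p = 0.718) in HFD+ASBTi against chow. The closely related Cyp2a12 averaged 21.8 ± 1.82 RPKM in HFD+ASBTi, 29.6 ± 5.09 in HFD and 20.6 ± 2.46 in chow (SD, n = 4 each). Cyp2a12 rose in HFD against chow, with a limma log2 change of 0.50 (SE 0.13, adjusted p = 0.0346). That call was lost without any of HFD 1, 2 and 4 or chow C2, C3 and C7 (adjusted p up to 0.0953). It was also lost without a filter (limma adjusted p = 0.0633) and with only the 2 groups compared (0.0577). Reads shared by Cyp2a22 and Cyp2a12, or by Cyp2a22 and the pseudogene LOC115486453 that overlaps it, cannot be told apart.

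Set side by side per spliced length, the 9 genes spanned a wide range. Whether reads in introns were counted is not given, so levels per spliced length, and the order they give, are uncertain. In chow livers Cyp2a5 stood at 312 ± 140 RPM per spliced kb, Nr1i3 at 135 ± 13.2, Por at 101 ± 8.41, Nr1i2 at 31.1 ± 2.41 and Cyp2a4 at 13.1 ± 5.89 (SD, n = 4 each). Cyp2b10 followed at 5.22 ± 3.94, Cyp2b13 at 2.04 ± 0.410, Cyp2a22 at 1.59 ± 1.05 and Cyp2b9 at 0.0983 ± 0.114 RPM per spliced kb. Of the neighbours in this order, the chow libraries of Cyp2a5 and Nr1i3, of Cyp2a4 and Cyp2b10, of Cyp2b10 and Cyp2b13, and of Cyp2b13 and Cyp2a22 overlapped, while those of the other neighbours did not. In HFD+ASBTi livers Cyp2b10 was at 0.0722 ± 0.110 and in HFD livers at 0.0899 ± 0.0778 RPM per spliced kb, the lowest of the 9 genes in both.

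A wider list of 40 CAR and PXR targets, of which 27 were tested on the RPKM scale, was chosen with earlier results of these data known. In HFD against chow 9 of 27 fell and 0 rose, with a median log2 change of -0.45, against 0.02 for all genes tested and 4.46% of all genes called lower. In HFD+ASBTi against chow 7 of 27 fell and 0 rose (median -0.57, against 0.03 for all genes and 2.31% called lower). Of the 27, Gadd45b and Slco1a4 passed the filter only through the chow libraries, where they were high, so they had to differ. A filter on the mean over all 12 libraries left 25 targets, of which 7 fell in HFD against chow and 5 in HFD+ASBTi against chow, with 0 higher in both. In HFD+ASBTi against HFD 0 of 27 passed limma's threshold in either direction (median -0.15, against 0.01).

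Leaving out 1 library at a time gave 8 to 10 lower in HFD against chow and 6 to 10 in HFD+ASBTi against chow. In HFD against chow 1 target was then called higher without HFD+ASBTi 3 (Thrsp), HFD 1 (Aldh1a7) or HFD 4 (Ugt2b34). With only the HFD and chow libraries in the fit Thrsp was called higher, and on the RPM scale or without a filter Abcb1a was. Thrsp averaged 65.6 ± 71.6 RPKM in HFD+ASBTi, 87.6 ± 33.6 in HFD and 19.4 ± 11.8 in chow (SD, n = 4 each). Its main limma log2 change was 2.38 (SE 0.82, adjusted p = 0.0817) in HFD against chow, a large rise that was not called.

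Cyp3a11, the main drug-oxidising CYP3A enzyme of mouse liver, had the most negative log2 change of the 27 in both comparisons with chow. It had 3.43, 5.42, 3.56 and 1.498 RPKM in HFD+ASBTi 1 to 4, 4.14, 7.41, 11.95 and 20.1 RPKM in HFD 1 to 4, and 108, 103, 75.5 and 82.9 RPKM in the chow libraries. Neither high-fat group reached the chow range. For Cyp3a11 limma gave a log2 change of -3.22 (SE 0.43, adjusted p = 0.00130) in HFD against chow, -4.63 (SE 0.43, adjusted p = 0.000225) in HFD+ASBTi against chow and -1.41 (SE 0.43, adjusted p = 0.406) in HFD+ASBTi against HFD. Cyp2c29, a P450 that CAR is known to induce, averaged 4.79 ± 1.44 RPKM in HFD+ASBTi, 4.93 ± 2.31 in HFD and 15.4 ± 2.85 in chow (SD, n = 4 each), with limma adjusted p of 0.0157 and 0.00840 for the comparisons of HFD+ASBTi and HFD with chow. Gadd45b, a stress-response gene that CAR activators raise in mouse liver, averaged 0.321 ± 0.134 RPKM in HFD+ASBTi, 0.311 ± 0.173 in HFD and 1.87 ± 0.288 in chow, and is given as a description with no test because of how it passed the filter. Cyp3a25, another CYP3A enzyme, averaged 12.03 ± 4.61 RPKM in HFD+ASBTi, 14.5 ± 3.197 in HFD and 37.5 ± 4.10 in chow (limma adjusted p = 0.00582 and 0.00844 against chow).

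**Figure D5:**
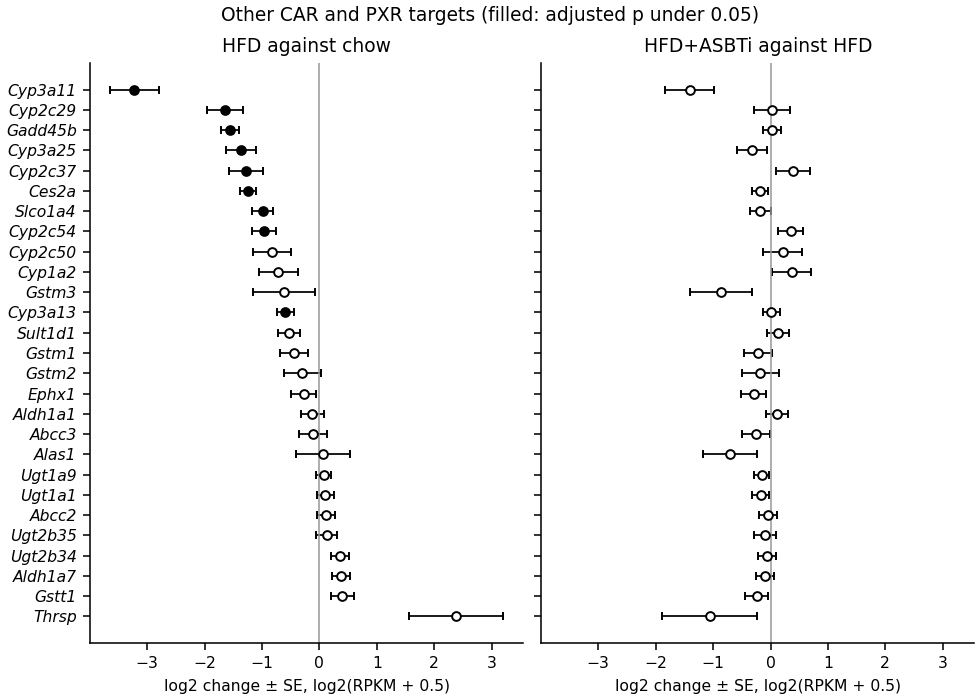
Log2 change with its SE on the log2(RPKM + 0.5) scale for the 27 tested CAR and PXR targets, in HFD against chow (left) and HFD+ASBTi against HFD (right), where filled points have an adjusted p under 0.05. In HFD against chow the 9 filled points all lie left of 0, with Cyp3a11 at -3.22, and in HFD+ASBTi against HFD no point is filled. The filled points include Gadd45b and Slco1a4, which passed the filter only through chow and so had to differ.

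Among 18 tested partners and regulators of the receptors, 2 rose and 2 fell in HFD against chow, and 2 rose and 1 fell in HFD+ASBTi against chow. Over all genes tested, 7.65% rose and 4.46% fell in HFD against chow, and 4.74% rose and 2.31% fell in HFD+ASBTi against chow. With so few genes, these counts are no result about the list. Hnf4a, a nuclear receptor of hepatocyte identity that acts on Nr1i3 and many P450 genes, averaged 13.3 ± 0.921 RPKM in HFD+ASBTi, 11.3 ± 1.60 in HFD and 19.2 ± 1.08 in chow (SD, n = 4 each). Its limma log2 change was -0.74 (adjusted p = 0.00126) in HFD against chow and -0.51 (adjusted p = 0.0155) in HFD+ASBTi against chow. Rxra, the common dimer partner, averaged 5.397 ± 0.277 RPKM in HFD+ASBTi, 4.76 ± 0.650 in HFD and 5.07 ± 0.317 in chow, with a limma log2 change of -0.09 (SE 0.09, adjusted p = 0.549) in HFD against chow. Nfe2l2, the oxidative stress factor NRF2, rose 1.73-fold in HFD against chow (limma adjusted p = 0.00687), and Cebpa, a hepatocyte transcription factor, rose 1.46-fold (limma adjusted p = 0.0111). In HFD+ASBTi against chow Cebpa rose 1.49-fold (limma adjusted p = 0.0158) and Nfe2l2 1.49-fold (limma adjusted p = 0.0433). The call of Nfe2l2 there was lost without any of HFD+ASBTi 1, 2 and 3, HFD 1 and 2, or chow C2, C3 and C7 (adjusted p up to 0.103). It was also lost after quantile normalization (limma adjusted p = 0.0578) and after a median shift (0.0507). Without a filter (0.0902) or with only the 2 groups compared (0.0754) Nfe2l2 was not called either. Rxrb, another RXR, fell in HFD against chow (limma adjusted p = 0.0279), a call lost without any of HFD 2 and 3 or chow C2, C3 and C8 (adjusted p up to 0.0815).

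Of 11 tested genes of microsomal electron transfer and haem supply, Alad, which makes porphobilinogen, was the 1 gene called in HFD against chow. Cyb5b, a cytochrome b5 of the mitochondrial outer membrane, was the 1 called in HFD+ASBTi against chow. Alad rose 1.56-fold (limma adjusted p = 0.0315; 0.0854 without HFD 3, and also not called without HFD 1 or 2 or chow C2, C3 or C7). The Alad call was also lost without a filter (limma adjusted p = 0.0648) and with only the 2 groups compared (0.0550). Cyb5b rose 1.49-fold (limma adjusted p = 0.0417; 0.102 without chow C3, and also not called without HFD+ASBTi 2, 3 or 4, HFD 2, or chow C2, C7 or C8). Nor was Cyb5b called after quantile normalization (limma adjusted p = 0.0691), after a median shift (0.0610) or without a filter (0.0844). Among the PAR bZip and clock genes reported here, Dbp rose in HFD against chow and in HFD+ASBTi against chow. Per2 averaged 0.738 ± 0.0670 RPKM in HFD and 0.316 ± 0.123 in chow. It is given as a description with no test, because it would not have passed the filter without the HFD libraries, where it was high. Dbp averaged 16.7 ± 3.89 RPKM in HFD+ASBTi, 22.0 ± 2.61 in HFD and 8.91 ± 2.80 in chow (SD, n = 4 each), with a limma log2 change of 1.31 (adjusted p = 0.00563) in HFD against chow. Its change in HFD+ASBTi against chow was 0.90 (adjusted p = 0.0413), a call lost when any single library other than HFD 4 or chow C8 was left out (adjusted p up to 0.0862). That Dbp call was also lost without a filter (limma adjusted p = 0.0890) and with only the 2 groups compared (0.0815). Among 23 other tested Cyp2 genes, 3 rose and 3 fell in HFD against chow, 0 passed in HFD+ASBTi against HFD, and Cyp2c29 alone fell in HFD+ASBTi against chow. Of 21 other genes known to be higher in female liver, 3 passed the filter, with 1 higher in HFD against chow, 0 called in HFD+ASBTi against HFD and 1 higher in HFD+ASBTi against chow. Of 23 tested genes known to be higher in male liver, 2 rose and 3 fell in HFD against chow, 0 were called in HFD+ASBTi against HFD, and 2 rose and 1 fell in HFD+ASBTi against chow. Over all genes tested, 12.1% were called in HFD against chow (7.65% higher, 4.46% lower). The shares were 0.0949% in HFD+ASBTi against HFD and 7.05% in HFD+ASBTi against chow (4.74% higher, 2.31% lower). The counts of these small lists are no result about the lists.

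Besides Por, the patterns most like each gene over the 12 libraries were Rhobtb1 for Nr1i2 (r = 0.921), Ugt2b36 after Tomm40l for Nr1i3 (r = 0.903), N4bp2l1 for Cyp2a5 (r = 0.861), Atp5h for Cyp2a4 (r = 0.880) and Hsp90ab1 for Cyp2a22 (r = 0.894). Each was picked as the highest, or for Ugt2b36 the next highest, among all tested genes, over libraries that share depth and diet, and is a description only.

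All 10 hepatocyte markers were present in every group. Their summed level was 29387 to 33563 RPM in HFD+ASBTi, 27872 to 43437 RPM in HFD and 36329 to 40871 RPM in chow, so the HFD+ASBTi range lay below the chow range. Red blood cell markers summed to 197 to 352 RPM in HFD+ASBTi, 214 to 363 RPM in HFD and 60.9 to 181 RPM in chow. The 8 adipose and intestine markers summed to 41.9 to 54.4 RPM in HFD+ASBTi, 54.4 to 98.7 RPM in HFD and 13.8 to 23.9 RPM in chow, with Plin1, Lep and Cdx2 at 0 in HFD+ASBTi, Cdx2 at 0 in HFD and Lep at 0 in chow. Macrophage, cholangiocyte, endothelial and stellate cell sums overlapped between the groups. Of 9 tested macrophage markers, Cd68 was called, at 2.15 ± 0.333 RPKM in HFD+ASBTi, 2.08 ± 0.479 in HFD and 1.08 ± 0.377 in chow (SD, n = 4 each). Its limma adjusted p was 0.0202 in HFD against chow and 0.0251 in HFD+ASBTi against chow. The call was lost without chow C2, C3 or C8 in both, without HFD 2 in HFD against chow (adjusted p up to 0.0607) and without HFD+ASBTi 2 in HFD+ASBTi against chow (adjusted p up to 0.0748). Of 5 tested red blood cell markers 4 were called higher in each comparison with chow. Both tested adipose and intestine markers were called higher in HFD against chow and 1 of them in HFD+ASBTi against chow, while 2 of 10 hepatocyte markers were called lower in HFD against chow and 1 in HFD+ASBTi against chow. Over all genes tested, 7.65% were called higher and 4.46% lower in HFD against chow, and 4.74% and 2.31% in HFD+ASBTi against chow. The part of the marker differences in the Cyp2b10 and other values was not tested.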

How the data were processed

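The authors' deposited table holds RPKM in 33763 rows for 12 liver libraries. The submitters' processing notes name Bowtie 0.12.7 and the build mm9. How reads were filtered and counted, and on which annotation, is not given in the sources used here. Per the labels' protocols, libraries were made with a TruSeq RNA kit. The column headed C7 matched the chow group but no single sample label.

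Where a symbol had several rows, that of highest mean represented it. Low RPKM values were whole multiples of 1 read (within 0.05) for 78.3% to 80.7% of values with the genomic span as length, and for 12.4% to 13.3% with the spliced length. Read numbers are estimates from those steps, whole within 0.05 for 32 of 36 Cyp2b values, and cover counting error only.

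The main test used limma 3.58.1 under R 4.3.3, its prior variance following mean log2(RPKM + 0.5), all 12 libraries in 1 model with 9 residual degrees of freedom, and adjusted over 6325 genes. It was tested on simulated data. A fold change on this scale understates the change of low genes. Tables, permutation tests, alignments and plots used Python 3.11.15 with pandas 2.3.3, numpy 2.4.6, scipy 1.17.1, Biopython 1.88 and matplotlib 3.10.9. Motifs were searched in RefSeq windows, in which all 9 genes matched by symbol.

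The members and lists were chosen with earlier results of these data known. Named were all members, up to 4 called genes per list and comparison with the largest log2 change, a panel of 10 genes, and the 3 tested genes most like each member. Ppargc1a, of the panel, did not pass the filter, and Cyb5a is not analysed here. A result of the clock list is not reported here.

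Alternatives were other pseudocounts (0.1 and 1), no filter, a filter on the mean, quantile normalization, a median shift, RPM, summed rows, no trend, only the groups compared, a replicate block and leaving out each library. Leaving out libraries on the RPM scale was added after seeing the data. Wherever a library was left out of a fit, the filter was still that of all 12 libraries.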

Additional observations from a re-analysis of the deposited data

Results flagged for a closer look

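In HFD 2, Cyp2a4 stood apart from the other 3 HFD libraries, at 1.58 RPKM against 2.34 to 2.46 RPKM. The gap to its nearest neighbour was 0.867 of the range of the group, above Dixon's 95% critical value for 4 samples. Of 27 groups of 4 libraries looked at, this was the 1 that passed, and chance flags about 1 in 20. Cyp2a5 in HFD 2 had 48.6 RPKM, close to HFD 4 at 48.5 RPKM, so it did not stand apart there.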

How the results depend on the processing

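In HFD against chow the count of called members went from 0 to 1 (Cyp2b10) without a filter and to 1 (Cyp2b10) on the RPM scale, since both test genes the filter leaves out. Cyp2b10 passed the filter of the RPM scale only through chow. In HFD+ASBTi against chow it was 1 after quantile normalization (Nr1i2), 1 after a median shift (Nr1i2) and 1 on the RPM scale (Cyp2b10), and 0 to 2 when each library was left out, with 2 (Nr1i2 and Por) without HFD+ASBTi 3. Of the 9 permutation tests of members below the filter, 2 passed, 1 passed in limma without a filter, and 1 to 3 passed when each library was left out. In HFD+ASBTi against HFD 0 members were called under every alternative run.

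The log2 change of Nr1i3 in HFD+ASBTi against chow reversed to -0.0418 after a median shift. When each library was left out, changes near 0 spanned both signs for Nr1i3 (-0.0244 to 0.52 in HFD against chow, -0.51 to 0.0345 in HFD+ASBTi against HFD, -0.11 to 0.10 in HFD+ASBTi against chow), Nr1i2 (-0.14 to 0.0219 in HFD against chow), Alas1 (-0.14 to 0.16 in HFD against chow), Cyp2c29 (-0.27 to 0.26 in HFD+ASBTi against HFD), Nr0b2 (-0.41 to 0.0467 in HFD+ASBTi against HFD, -0.19 to 0.27 in HFD+ASBTi against chow), Cyp2b10 (-0.0134 to 0.00113 in HFD+ASBTi against HFD) and Cyp2b13 (-0.00645 to 0.0289 in HFD+ASBTi against HFD). The cause was not tested. Of the other single-gene values, 1321 kept direction and side of the threshold, 77 lost it and 6 gained it.

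Over all genes the RPM scale called 1304 in HFD against chow, against 766, and 728 in HFD+ASBTi against chow, against 446. When each library was left out, HFD against chow called 458 (without chow C3) to 864 genes, with 488, 475 and 494 without HFD 2, HFD 3 and chow C2. HFD+ASBTi against chow called 142 (without chow C3) to 521, with 230, 228, 224, 232 and 276 without HFD+ASBTi 1, HFD+ASBTi 2, chow C2, chow C7 and chow C8. HFD+ASBTi against HFD called 0 to 9 genes when each library was left out, and 0 without a filter.

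With the replicate number as a block (replicate block), 0 members were called in HFD+ASBTi against HFD, and 3 genes overall against 6. After each group's mean was taken from every gene, same-numbered HFD+ASBTi and HFD libraries correlated at 0.0408 to 0.0691. The highest correlation of an HFD+ASBTi library with an HFD library of another number was 0.0199 to 0.117. For number 4 the same-numbered value was the higher, 0.0411 against 0.0199, and for numbers 1, 2 and 3 the lower. These values do not settle whether the numbers mark pairs. Chow could not be blocked, since the chow labels all carry the number 1. Cyp2b9 and Cyp2b10 in high-fat livers were limited by depth, where 3 reads equal 0.227 to 0.335 RPM.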
